A study of Mus musculus with 36 samples.

Results

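The genes of the CaMKII subunits, Camk2a, Camk2b, Camk2d and Camk2g, were followed through ribosome footprints and RNA-seq of newborn mouse brain. They were found by gene name in the deposited count table and make up 4 of its 16614 rows; all 4 passed the filter on low counts in every comparison below. Whole brains of C57BL/6 mice, either wild type (WT) or lacking FMRP (FMR1 KO), were taken at postnatal day 5 from both sexes, and 10 brains were pooled for each preparation. Homogenate was spun through a sucrose gradient, and ribosome-protected fragments (footprints, the stretch of mRNA that a ribosome shields from nuclease) were sequenced from the pellet, which holds RNA granules with compacted, stalled ribosomes, and from fraction 5/6, which holds polysomes. Total RNA of the homogenate was sequenced beside them. The nuclease step was carried out either at room temperature with 10 mM MgCl2 and much enzyme (standard) or at 4 °C with 2.5 mM MgCl2 and less enzyme (low). Genotype, source of RNA and preparation give 12 groups of 3 libraries, 36 in all. In a pool of whole brains, fewer cells of a type and less RNA per cell cannot be told apart. The p-values measure the spread between these libraries, since nothing in the labels follows a single animal. By the paper's methods, the 3 replicates of a footprint group received different barcodes and were pooled before reverse transcription and PCR. Differences between footprint groups therefore cannot be told apart from differences between these pools.

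CaMKII is a calcium- and calmodulin-dependent protein kinase whose subunits assemble into a large ring-like holoenzyme. A neighbouring subunit phosphorylates a threonine in the regulatory segment, after which the kinase keeps part of its activity when calcium has fallen again, and this switch is a textbook mechanism of synaptic potentiation. Camk2a, the alpha subunit, is the classical dendritic mRNA of forebrain excitatory neurons and is transported in RNA granules. Camk2b, the beta subunit, binds and bundles actin and is expressed earlier in brain development than alpha. Camk2d and Camk2g, the delta and gamma subunits, are found in most tissues, delta being the main form in heart, and gamma has been described as a shuttle that carries calmodulin to the nucleus.

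The codon of the switch threonine and the 12 bases on each side of it are shown for 3 subunits, 5′ to 3′ on the coding strand with the threonine codon in capitals, to show how far the coding sequences differ around a codon that is compared between the subunits in the peak data. Each stretch is exonic and coding (GRCm38): chr11:5988985-5989011 on the minus strand in exon 11 of 19 for Camk2b, chr3:126797729-126797755 on the plus strand in exon 11 of 20 for Camk2d, and chr14:20760427-20760453 on the minus strand in exon 11 of 19 for Camk2g.
Camk2b: cacagacaggagACTgtggaatgtctg
Camk2d: cacaggcaggagACTgtagactgcttg
Camk2g: catcgccaagagACGgtagagtgctta
Over these 27 bases Camk2b and Camk2d differed at 5 positions, 4 of them at the last base of a codon. Camk2b and Camk2g differed at 10 positions, 8 of them at the last base, and Camk2d and Camk2g at 7, of which 6 were at the last base.

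In GRCm38, Camk2a (ENSMUSG00000024617) lies on chromosome 18 from 60925618 to 60988152 on the plus strand and Camk2b (ENSMUSG00000057897) on chromosome 11 from 5969644 to 6066362 on the minus strand. Camk2d (ENSMUSG00000053819) lies on chromosome 3 from 126596302 to 126846326 on the plus strand, and Camk2g (ENSMUSG00000021820) on chromosome 14 from 20734875 to 20794088 on the minus strand. The coding exons of the 4 genes span similar lengths when overlapping transcripts are merged, 1788, 2034, 1756 and 1969 nt in that order, while the merged exons range from 3880 nt in Camk2g to 8524 nt in Camk2d. The proteins are 478 to 512 residues long and 84.1% to 88.7% identical between pairs.

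The libraries held between 6765065 and 147216378 counts. In the standard footprint libraries 36.7% to 63.4% of these fell on the single gene Cdk8, a kinase of the Mediator complex, against 2.69% to 5.62% in the low footprint libraries and at most 0.0338% in the standard RNA-seq libraries, so levels are given as counts per 1000000 counts of the library with Cdk8 left out (CPM). The RNA-seq libraries WT low replicate 2 and FMR1 KO low replicates 2 and 3 stood apart, with 82.4% to 85.0% of their counts in 10 genes against 3.66% to 4.10% in the other 3 of that preparation. Fmr1, the targeted gene, averaged 64.8 CPM ± 6.19 in WT and 17.1 ± 0.913 in FMR1 KO RNA-seq, and 66.5 ± 1.71 and 4.84 ± 0.0769 in the pellets (SD, n = 3 standard libraries). In fraction 5/6, the library labelled WT replicate 3 had 3.17 CPM of Fmr1, below the FMR1 KO libraries at 5.98 to 10.7, so its label is in doubt, and the tests of the subunits that include it are also given without it. The summed CPM of 4 Y-linked genes was 0.107 to 0.213 in the FMR1 KO standard RNA-seq libraries and 84.8 to 102.2 in those of WT, while it was 61.7 to 98.5 in the standard and 64.6 to 108.6 in the low footprint libraries of both genotypes. In the standard preparation, FMR1 KO footprints against RNA-seq and the genotype comparisons that use RNA-seq thus set libraries with unlike Y-linked counts against each other. The 4 subunit genes are autosomal, and the part of this difference in their values was not tested.

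In RNA-seq the order of the subunits by level per kb of merged exon was Camk2b, Camk2a, Camk2g and Camk2d, and none of these neighbours overlapped in the standard libraries of either genotype. Camk2b lay at 164 to 233 CPM per kb in the WT libraries, Camk2a at 72.1 to 85.5, Camk2g at 45.0 to 56.3 and Camk2d at 17.3 to 23.3. In the WT pellet, with footprints set against the merged coding length, Camk2b was at 334 to 377 CPM per kb, Camk2a at 170 to 209 and Camk2d at 97.4 to 101. Those 3 kept the same order without overlap, whereas Camk2g spread from 75.1 to 694 and overlapped all of the others. In the FMR1 KO pellet the ranges of Camk2b (194 to 347), Camk2a (107 to 153) and Camk2d (65.5 to 100.2) also stayed apart.

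Camk2a, the granule-transported subunit, had 413, 452 and 490 CPM in the WT standard RNA-seq libraries and 425, 471 and 351 in those of FMR1 KO. In fraction 5/6 it had 263, 173 and 262 CPM in WT and 168, 265 and 276 in FMR1 KO. In the pellet it had 304, 332 and 374 CPM in WT and 237, 191 and 273 in FMR1 KO. The genotypes overlapped in RNA-seq and in fraction 5/6, and in the pellet every FMR1 KO library lay below every WT library.

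Camk2b, the actin-binding subunit, had 726, 1030 and 926 CPM in WT RNA-seq and 888, 832 and 874 in FMR1 KO. Fraction 5/6 gave 588, 350 and 668 CPM in WT and 453, 593 and 769 in FMR1 KO. The pellet gave 679, 708 and 768 CPM in WT and 554, 395 and 706 in FMR1 KO. The genotypes overlapped in all 3 sources, in the pellet only because FMR1 KO replicate 3 lay within the WT range.

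Camk2d, the delta subunit, had 147.1, 181 and 198 CPM in WT RNA-seq and 174, 214 and 175 in FMR1 KO. Fraction 5/6 gave 196, 130 and 161 CPM in WT and 183, 202 and 223 in FMR1 KO. The pellet gave 171, 177 and 174 CPM in WT and 151, 115 and 176 in FMR1 KO. The 3 WT pellet libraries were close, their highest value being 1.04 times the lowest against a median of 1.22 times over genes with at least 50 CPM, and the genotypes overlapped in the pellet and in RNA-seq and fraction 5/6.

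**Figure D1:**
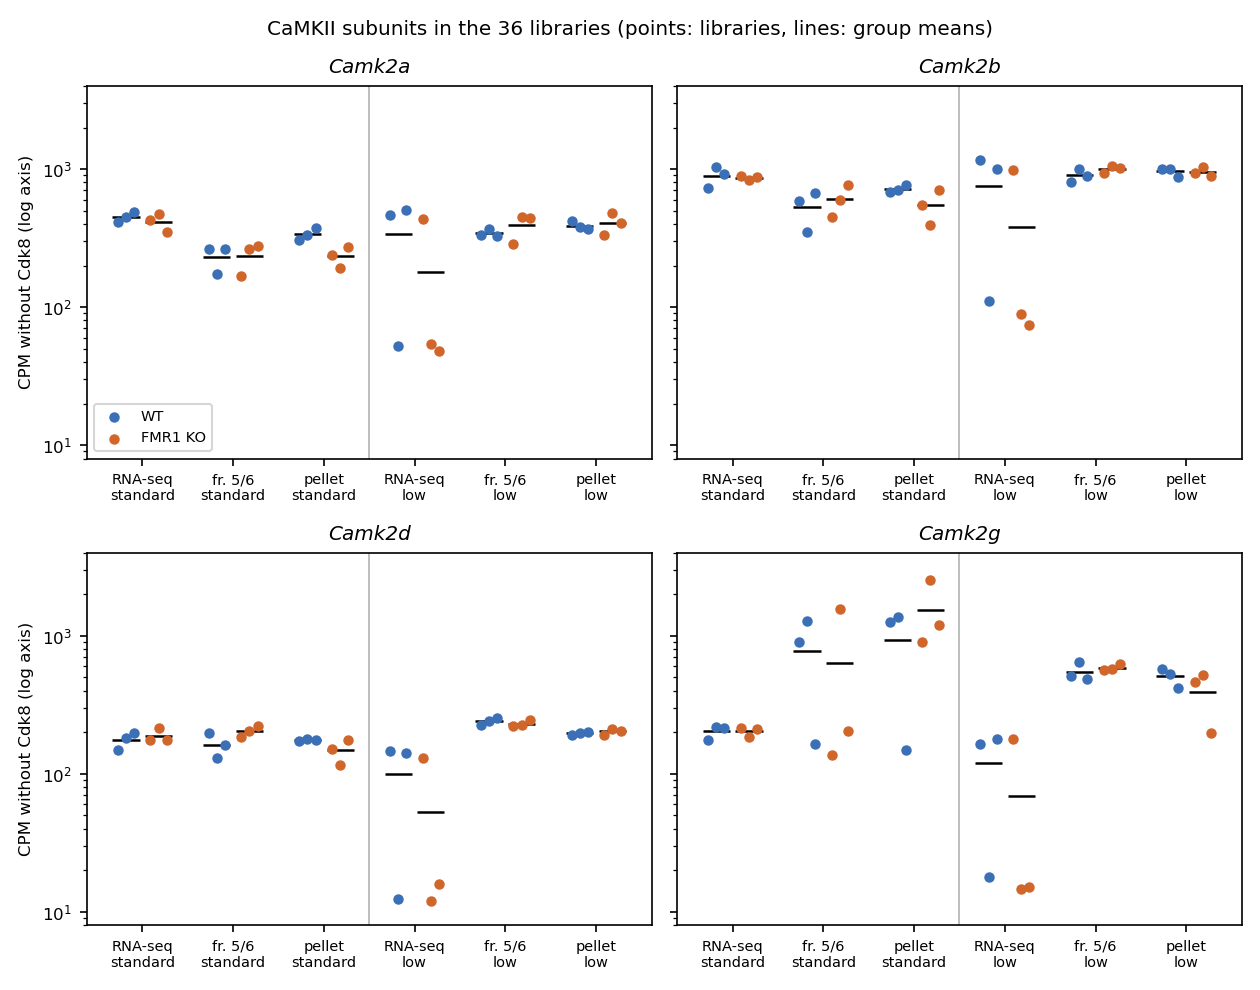
CPM without Cdk8 (y axis, log scale) of each CaMKII subunit gene in the 36 libraries, by source of RNA and preparation, blue for WT and orange for FMR1 KO; points are libraries and lines are group means. Camk2a, Camk2b and Camk2d differ by at most 1.91 times within a footprint group, Camk2g spreads from 138 to 2509 CPM over the standard footprint libraries, and the 3 low RNA-seq libraries led by 10 genes lie far below the rest.

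Camk2g, the gamma subunit, behaved differently from the other three in the standard footprints. Its RNA-seq levels were even, at 174, 218 and 215 CPM in WT and 215, 185 and 212 in FMR1 KO. The pellet gave 1258, 1367 and 148 CPM in WT and 898, 2509 and 1195 in FMR1 KO, and fraction 5/6 gave 894, 1271 and 165 in WT and 138, 1566 and 204 in FMR1 KO. Within one group the highest library therefore reached 9.25 times the lowest in the WT pellet, which is the 95.7th percentile of genes at this level, and 11.4 times in FMR1 KO fraction 5/6. In the low footprints Camk2g lay between 196 and 643 CPM.

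The gene whose pattern over the 18 standard libraries was most like that of Camk2g, by Pearson's r of log2(CPM + 1), was Vcl (r = 0.988), which encodes vinculin, an actin-linking protein of cell adhesions. Vcl lies on the opposite strand of the same chromosome, and 135 kb separate the genes. The next most alike were Myo3b (r = 0.844) and Pim1 (r = 0.796). These r values describe libraries that share their preparations and depth, and carry no test.

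Vcl had 9.04 to 14.1 CPM in standard RNA-seq but 1112, 1198 and 8.81 CPM in the pellet of WT and 765, 2416 and 1038 in the FMR1 KO pellet. In fraction 5/6 it had 735, 1170 and 10.4 CPM in WT and 7.53, 1407 and 10.97 in FMR1 KO. The libraries with a high level of Camk2g were those with a high level of Vcl, and the excess was of nearly equal size. Camk2g less Vcl was 140 CPM ± 26.1 in the 6 standard pellet libraries, 150 ± 31.2 in the 6 of fraction 5/6 and 192 ± 19.7 in the 6 of RNA-seq (SD), close to the Camk2g level in the standard footprint libraries where Vcl was low. A count table holds no reads, so the source of the shared excess was not tested. The main Camk2g comparisons on footprints are given below both as deposited and with the Vcl count of the library taken off, an adjustment chosen after seeing the data.

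**Figure D2:**
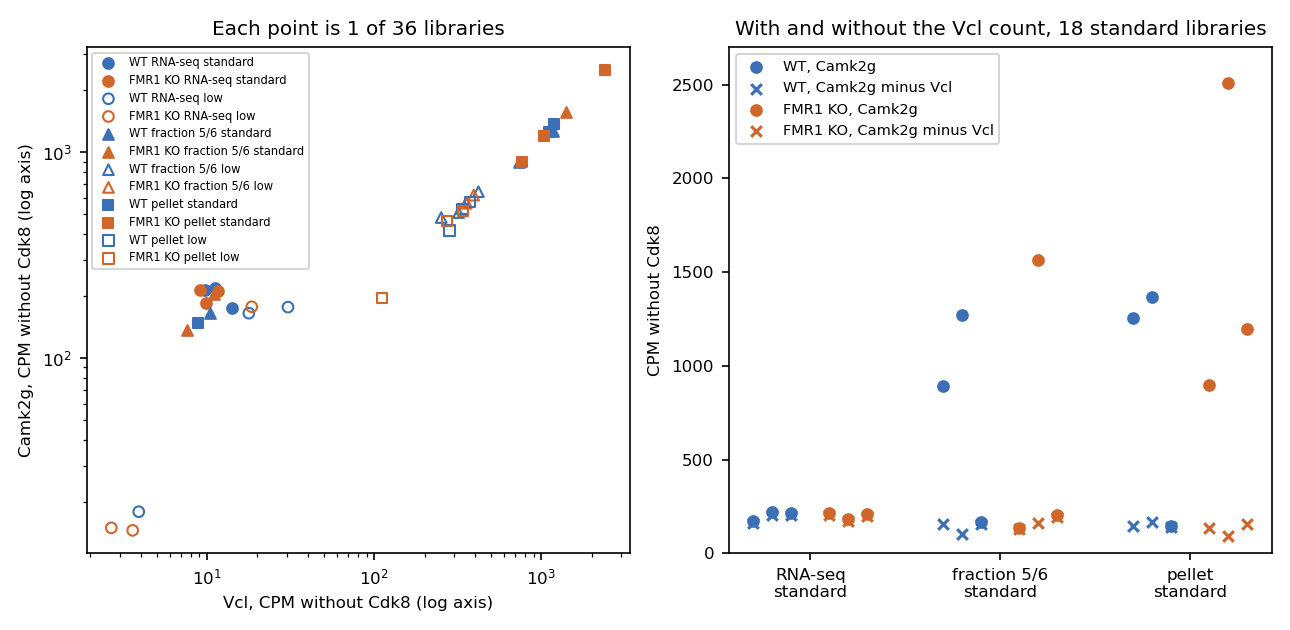
Left, Camk2g against Vcl in CPM without Cdk8 (both axes logarithmic) in the 36 libraries; right, Camk2g in CPM (linear axis) in the 18 standard libraries as deposited (circles) and less Vcl (crosses). Where Vcl reaches 735 to 2416 CPM, Camk2g is higher still, and less Vcl the standard footprint libraries lie between 93.3 and 193 CPM.

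The first comparison asked whether loss of FMRP changed the subunits in each source of RNA. In standard RNA-seq none of the 4 passed edgeR's quasi-likelihood test at an adjusted p of 0.05, against 0.0735% of the 16334 genes tested, and the log2 differences, FMR1 KO against WT, were -0.09 ± 0.14 (SE) for Camk2a, -0.02 for Camk2b, 0.13 for Camk2d and 0.04 for Camk2g. In the pellet none of the 4 passed either, against 0.015% of 13370 genes. Camk2a had a log2 difference of -0.49 ± 0.15, with an unadjusted p of 0.0157 and an adjusted p of 0.867, and lay at the 3.4th percentile of all genes. DESeq2 called 66 genes in this comparison where edgeR called 2 and gave Camk2a an adjusted p of 0.237, the lowest of any alternative, the others reaching up to 1.00. Camk2b stood at -0.37 ± 0.16 (edgeR adjusted p = 0.867), Camk2d at -0.21 ± 0.10 (0.869) and Camk2g at 0.96 ± 0.86 (0.961), or at -0.22 ± 0.09 (0.867) with Vcl taken off. The deposited Camk2g value ran from 0.09 without FMR1 KO pellet replicate 2 to 1.31 without WT pellet replicate 1. The median log2 difference over all genes was 0.00.

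In fraction 5/6 the log2 differences, FMR1 KO against WT, were -0.28 ± 0.20 for Camk2a, -0.12 for Camk2b, 0.03 for Camk2d and -0.65 ± 1.2 for Camk2g, and -0.08 for Camk2g with Vcl taken off. The deposited Camk2g value ran from -2.73 without FMR1 KO replicate 2 to 0.31 without WT replicate 2, so its sign rests on single libraries. None of the 4 passed edgeR's test, nor did any of the 13075 genes (0%), of which 590 had an unadjusted p under 0.05 while DESeq2 called 76. Without the library labelled WT replicate 3 no subunit passed either, where 4 of 13289 genes did, all of them lower in FMR1 KO.

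The low preparation repeated the comparison in separate libraries. In its RNA-seq none of the 4 passed, nor did any gene (0% of 15761, with 344 at an unadjusted p under 0.05 and 1 called by DESeq2). Camk2a had 419, 379 and 371 CPM in the WT and 331, 483 and 408 in the FMR1 KO pellet, and here the genotypes overlapped, with a log2 difference of 0.16 ± 0.14 (edgeR adjusted p = 0.913). Camk2b had 1005, 999 and 882 CPM in WT and 938, 1030 and 892 in FMR1 KO, a log2 difference of 0.09, and Camk2d 190, 197 and 201 CPM in WT and 192, 210 and 205 in FMR1 KO, a log2 difference of 0.14. None of the 4 passed, against 0.0197% of genes in the pellet and 0.0445% in fraction 5/6 of this preparation. The difference between the preparations in the genotype effect on the pellet was -0.64 ± 0.20 for Camk2a on the log2 scale, with an unadjusted p of 0.00973 and an edgeR adjusted p of 0.770, so the lower Camk2a level of the standard FMR1 KO pellet was neither significant across genes nor present in the low libraries, and the change between preparations was not significant either. In this interaction 0.013% of genes passed and none of the subunits did.

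The second comparison asked how pellet footprints related to the RNA present in the homogenate, the measure called occupancy. In WT all 4 subunits were higher in the pellet than in RNA-seq, against 31.1% of 16166 genes that were higher and 34.3% that were lower. The log2 difference was 0.74 ± 0.15 for Camk2a (edgeR adjusted p = 0.00359), 0.85 ± 0.18 for Camk2b (0.00426), 1.15 ± 0.14 for Camk2d (0.000229) and 3.30 ± 0.70 for Camk2g (0.00427), while the median over all genes was -0.11. The values rest on edgeR's scaling. In plain CPM the mean of the WT pellet was below that of RNA-seq for Camk2a (337 against 452), Camk2b (718 against 894) and Camk2d (174 against 176), and for Camk2g with Vcl taken off (151 against 191). These values placed the subunits at the 73.2, 75.7, 82.5 and 97.9 percentile of all genes in that order. With Vcl taken off, Camk2g stood at 0.82 ± 0.13 (edgeR adjusted p = 0.000953), close to Camk2a and Camk2b, and it too passed. Scaling by library size alone turned the sign of Camk2a, Camk2b and Camk2d and moved the median of all genes to -2.14; relative to that median they remained higher.

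In FMR1 KO, occupancy was called for 3 of the 4, against 31.9% of genes that were higher. Camk2d had a log2 difference of 0.75 ± 0.13 (edgeR adjusted p = 0.00225), Camk2b 0.44 ± 0.14 (0.0293) and Camk2g 4.17 ± 0.58 (0.000626), or 0.50 ± 0.10 (0.00441) with Vcl taken off, whereas Camk2a had 0.28 ± 0.16 (0.167). The call of Camk2b was lost when any one of 5 of the 6 libraries was left out, with adjusted p-values of 0.0968 without pellet replicate 1, 0.153 without pellet replicate 3, and 0.0745, 0.0519 and 0.0833 without RNA-seq replicates 1, 2 and 3. It was also lost with the replicate number as a block. Although Camk2a passed in WT and not in FMR1 KO, the difference between the genotypes was itself not significant, at -0.43 ± 0.22 for Camk2a (edgeR adjusted p = 0.821), -0.37 for Camk2b, -0.36 for Camk2d and 0.91 for Camk2g, with 0.0672% of genes called. The Camk2g value was 0.03 without FMR1 KO pellet replicate 2 and 0.33 without WT pellet replicate 3, and with Vcl taken off it was -0.28 (edgeR adjusted p = 0.844).

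In fraction 5/6 set against RNA-seq, edgeR called Camk2d and Camk2g in both genotypes and Camk2b in FMR1 KO; the subunits were not tested against each other, and DESeq2 called all 4 in WT. Camk2d was higher in the footprints of both genotypes, by 1.00 ± 0.18 on the log2 scale in WT (edgeR adjusted p = 0.00325) and by 1.04 ± 0.17 in FMR1 KO (0.00135). Camk2a was at 0.14 ± 0.17 in WT (0.503) and 0.09 in FMR1 KO (0.726) and passed in neither. Camk2b was at 0.34 ± 0.24 in WT (0.269) and at 0.38 ± 0.14 in FMR1 KO (0.0461), a call that was lost without any one of the 6 libraries, with adjusted p-values of 0.0523 to 0.127. Camk2g was at 3.20 ± 0.79 in WT (0.0129) and 2.66 ± 0.92 in FMR1 KO (0.0352), and with Vcl taken off at 0.63 (0.0170) and 0.64 (0.00271). Its call as deposited was lost without WT RNA-seq replicate 1 (0.0541) in WT, and without any one of the RNA-seq libraries in FMR1 KO (0.0854 to 0.0968), while leaving out FMR1 KO fraction 5/6 replicate 2 brought its difference to 0.55 (0.00699). Thus 2 of the 4 were called in WT, against 24.7% of genes that were higher, and 3 in FMR1 KO, against 29.8%. With the replicate number as a block only Camk2d was called in FMR1 KO, Camk2b having an edgeR adjusted p of 0.0960 and Camk2g of 0.138. With the doubted WT replicate 3 of fraction 5/6 left out, the same 2 were called in WT, Camk2d at 1.15 (0.00135) and Camk2g at 3.78 (0.000245), or at 0.70 (0.0107) with Vcl taken off.

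**Figure D3:**
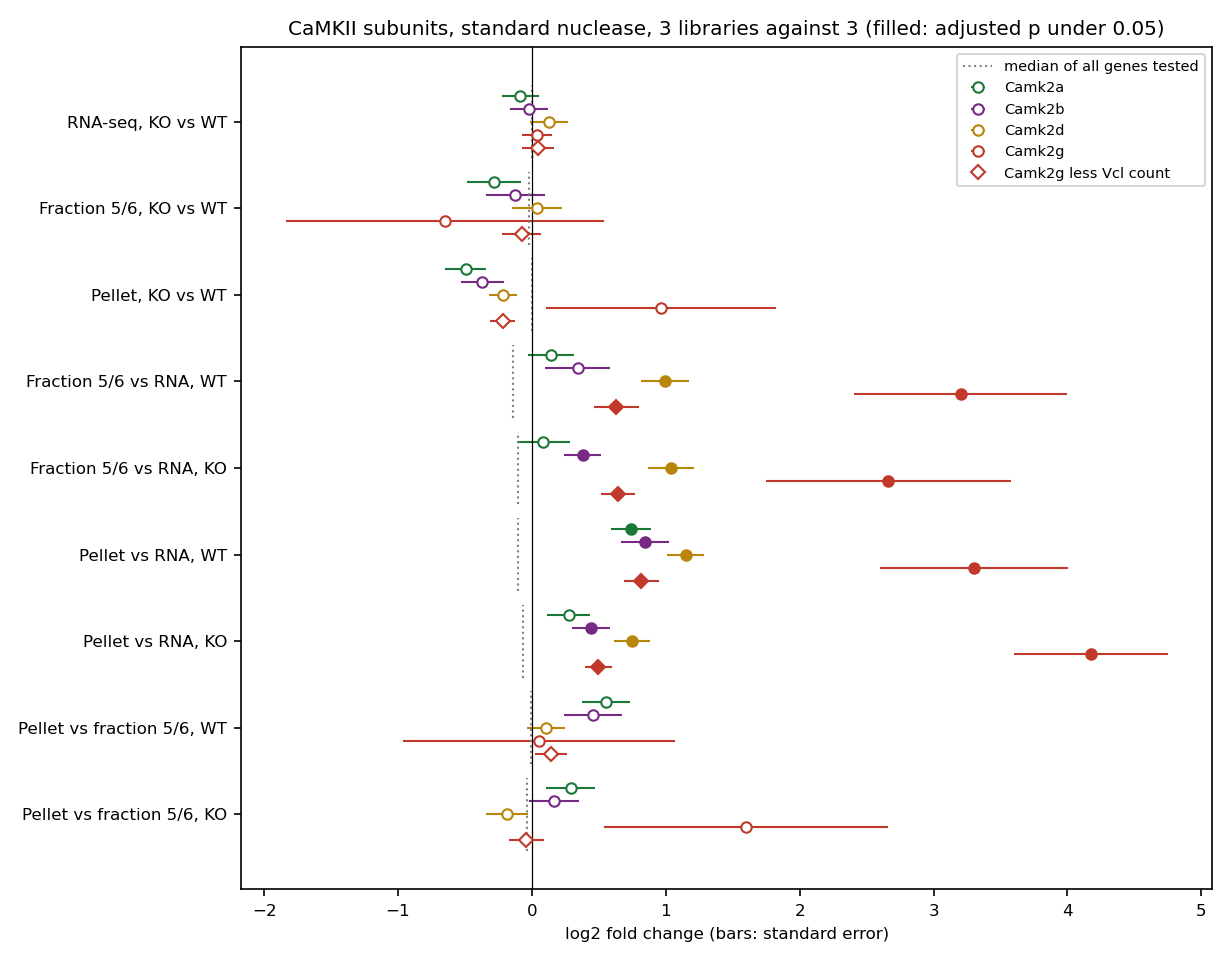
Log2 fold change of each subunit gene in each comparison of the standard preparation, 3 libraries against 3, with bars of 1 standard error from edgeR and filled symbols for an adjusted p under 0.05; diamonds show Camk2g with Vcl counts taken off and dotted lines the median of all genes tested. All filled symbols lie in the comparisons of footprints with RNA-seq, and none in those between genotypes or between pellet and fraction 5/6.

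The third comparison, pellet against fraction 5/6, is the enrichment of footprints in the granule-rich part of the gradient. In WT the log2 difference was 0.55 ± 0.18 for Camk2a, with an unadjusted p of 0.0212 and an edgeR adjusted p of 0.644, 0.46 ± 0.22 for Camk2b (0.644), 0.11 for Camk2d and 0.05 ± 1.01 for Camk2g. None of the 4 passed, against 0.0229% of 13076 genes. Leaving out the library labelled WT fraction 5/6 replicate 3 raised the number of genes called from 3 to 1273, and Camk2a then stood at 0.59 (edgeR adjusted p = 0.103) and Camk2b at 0.59 (0.101), still without a call. In FMR1 KO the differences were 0.29 ± 0.18 for Camk2a (0.314), 0.17 for Camk2b (0.570), -0.19 for Camk2d (0.438) and 1.60 ± 1.06 for Camk2g (0.336), and none passed, against 11.4% of 13248 genes. Without FMR1 KO fraction 5/6 replicate 2 Camk2a stood at 0.51 (0.0797), and Camk2g at 3.74 with a call (0.0428), which was lost with Vcl also taken off (0.06, edgeR adjusted p = 0.767). That library and FMR1 KO pellet replicate 2 held the highest Vcl levels, and with Vcl taken off Camk2g stood at -0.04 in FMR1 KO and 0.14 in WT. The genotype interaction of enrichment called no gene (0% of 13679, with 769 at an unadjusted p under 0.05 and 41 called by DESeq2), and the subunits had differences of -0.23, -0.26, -0.26 and 1.59 in the order alpha, beta, delta and gamma, the last being -0.15 with Vcl taken off. Without the library labelled WT fraction 5/6 replicate 3 they were -0.27, -0.40, -0.21 and 2.07 (-0.20 with Vcl taken off), and again no gene was called by edgeR (827 at an unadjusted p under 0.05).

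Levels per kb were also expressed as each subunit's share of the 4 together, which asks about the make-up of the footprints rather than their amount. In standard RNA-seq the 6 libraries of both genotypes gave Camk2b 57.0% ± 2.11, Camk2a 21.8% ± 2.29, Camk2g 15.1% ± 0.893 and Camk2d 6.14% ± 0.645 (SD). In the 6 pellet libraries Camk2g had 48.3% ± 21.8, Camk2b 28.7% ± 12.1, Camk2a 14.7% ± 6.88 and Camk2d 8.30% ± 2.90. Of the shares as deposited, those of Camk2b and Camk2g differed between pellet and RNA-seq (two-sided exact permutation tests over 6 against 6 libraries, adjusted p = 0.00866 and 0.0303 over the 4 subunits), and those of Camk2a and Camk2d did not pass (0.0548 and 0.0887). The ranges of Camk2g show how far 1 gene set these shares.

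With Vcl taken off Camk2g, the pellet shares narrowed to 49.1% ± 1.43 for Camk2b, 25.1% ± 1.80 for Camk2a, 14.6% ± 0.967 for Camk2d and 11.3% ± 1.02 for Camk2g. Against the RNA-seq shares computed in the same way, 57.5% ± 2.1, 22.0% ± 2.32, 6.19% ± 0.648 and 14.4% ± 0.887, Camk2b and Camk2g were lower and Camk2a and Camk2d higher in the pellet (exact permutation tests, adjusted p = 0.00289 for Camk2b, Camk2d and Camk2g and 0.0281 for Camk2a). These directions rest on the lengths, merged exons for RNA-seq and coding exons for footprints: with raw counts and Vcl taken off, the pellet differed from RNA-seq by -2.43 percentage points for Camk2a (exact permutation, adjusted p = 0.165), -0.21 for Camk2b (0.855), 0.11 for Camk2g (0.855) and 2.52 for Camk2d (0.0173), so that the higher share of Camk2d alone held. Against fraction 5/6 the share of Camk2a in the pellet was higher by 2.86 percentage points, that of Camk2d differed by -3.26 points and that of Camk2g by -1.62 points (exact permutation tests, adjusted p = 0.0346, 0.0260 and 0.00866). Without the library labelled WT fraction 5/6 replicate 3 these were 2.95, -3.99 and -1.76 points (0.0411, 0.00866 and 0.00866), and Camk2b was higher by 2.80 (0.0411). The log2 ratio of Camk2a to Camk2b per kb, which Camk2g does not enter, was -0.97 ± 0.127 in the pellet and -1.39 ± 0.205 in RNA-seq (SD, n = 6; exact permutation p = 0.00216, the smallest that 6 against 6 libraries allow). That difference rests on the lengths used: with transcript length for both sources it was -0.14 and of opposite sign. Between the genotypes no share differed as deposited, the lowest exact permutation p being 0.3 where 3 against 3 libraries cannot go below 0.1.

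**Figure D4:**
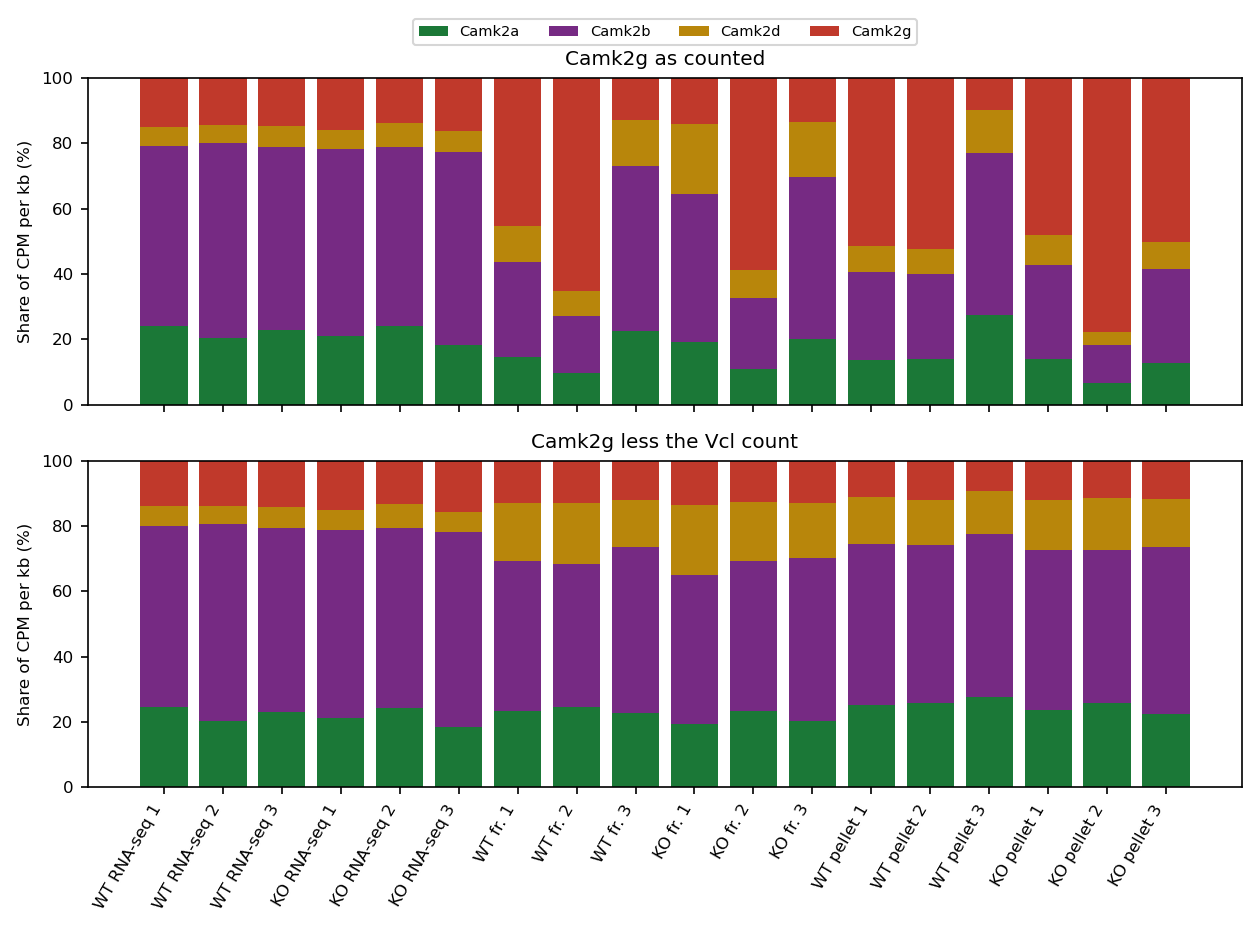
Share of each subunit in the summed CPM per kb of the 4 genes (y axis, percent) in each of the 18 standard libraries, with Camk2g as deposited (upper part) and with the Vcl count taken off (lower part); each bar is a library and fr. stands for fraction 5/6. As deposited the share of Camk2g runs from 9.87% to 77.6% in the pellet, and with Vcl taken off it runs from 9.33% to 12.1%.

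In the low preparation only the pellet was tested against RNA-seq gene by gene, and 3 of its 6 RNA-seq libraries were those led by 10 genes. Pellet occupancy was called for Camk2d and Camk2g in both genotypes, 2 of 4, against 24.9% of genes that were higher in WT and 16% in FMR1 KO. Camk2d stood at 1.07 ± 0.24 in WT (edgeR adjusted p = 0.00721) and 1.23 ± 0.23 in FMR1 KO (0.0106), and Camk2g at 2.11 ± 0.24 (0.000471) and 1.97 ± 0.43 (0.0170), or at 0.84 (0.0208) and 0.86 (0.142) with Vcl taken off. Camk2a stood at 0.22 and 0.41, and Camk2b at 0.39 and 0.78, without a call. The FMR1 KO calls depended on single libraries: without the replicates numbered 1 Camk2g was lost (0.0591), without those numbered 2 both were lost (0.193 for Camk2d and 0.201 for Camk2g), and without the 3 RNA-seq libraries led by 10 genes Camk2g was lost (0.139). Enrichment of pellet over fraction 5/6 called none of the 4 in WT, against 22.8% of genes, or in FMR1 KO, against 20.5%.

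Between preparations, Camk2d was higher in the standard than in the low WT pellet, by 0.36 ± 0.11 on the log2 scale (edgeR adjusted p = 0.0410), and no other subunit was called there, against 15.1% of genes that were higher. The call was lost without any one replicate number (adjusted p = 0.302, 0.0756 and 0.101 without 1, 2 and 3), without a filter (0.0528) and with the replicate block (0.0817). This direction follows from the scaling: the mean CPM of Camk2d was lower in the standard than in the low WT pellet, and with library size alone the difference was -0.98, while the median over all genes moved to -1.38. In the FMR1 KO pellet only Camk2g was called, by 2.62 ± 0.68 (0.0489), against 7.34% of genes that were higher, and with Vcl taken off it stood at 0.24 (0.604). This call too was lost without any one replicate number (0.0828, 0.118 and 0.204 without 1, 2 and 3), without a filter (0.0535) and with the block (0.0706). In fraction 5/6 none of the 4 was called, against 9.2% of genes in WT and 20.7% in FMR1 KO, nor in WT without the libraries numbered 3.

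Partners of the kinase were read from 5 lists of genes around calmodulin signalling, whose counts in WT occupancy stand beside the 31.1% of all genes that were higher and the 34.3% that were lower. In the FMR1 KO against WT pellet, where 0.015% of all genes were called, no gene of any list passed, and the medians of the lists lay between -0.17 and 0.07, beside 0.00 over all genes. Calmodulin and the small proteins that buffer it had a median WT occupancy of -0.52 beside -0.11 over all genes, with 1 of 6 higher, Gap43, a growth-cone protein that binds calmodulin (0.76), and 3 lower, namely Nrgn (-1.44), Calm3 (-1.33) and Pcp4 (-0.84). Both genes of the endogenous CaMKII inhibitors were lower, Camk2n2 by a log2 difference of -3.32 and Camk2n1 by -2.99. The same 2 inhibitor genes were also called lower in FMR1 KO occupancy, where 35.2% of all genes were lower, and in fraction 5/6 against RNA-seq, where 31.3% were lower in WT and 33.2% in FMR1 KO, with list medians between -3.23 and -2.76. Without the library labelled WT replicate 3, both were again called lower in WT fraction 5/6 against RNA-seq, with a median of -2.60 and 32.1% of all genes lower. Thus the mRNAs of the kinase subunits lay above, and those of its inhibitors far below, the median of all genes in the same libraries. The fits set footprints against RNA of whole transcripts without a term for length. The part of each mRNA's coding share in this contrast was not tested.

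Of 8 other calmodulin-dependent kinases, 5 were higher in WT occupancy, where 31.1% of all genes were higher and 34.3% lower, led by Camk1d (4.00), Camk1g (1.49) and Pnck (1.01), and 1 was lower, Camkk2 (-0.87), an upstream kinase of the family, with a median of 0.68. Of 8 genes of calcineurin and protein phosphatase 1, which remove phosphates in the same synaptic pathways, 4 were higher, led by Ppp3ca (1.24), Ppp1cb (0.96) and Ppp3r1 (0.52), and 1 was lower, Ppp1cc (-2.43), with a median of 0.19. Of 20 binding partners and substrates, 7 were higher and 7 lower, with a median of -0.10, which is close to the shares over all genes and is no result about the list. The higher ones included the actin cross-linkers Actn1 (2.24), Actn2 (1.78) and Actn4 (1.73), and the lower ones Grin2a (-2.21), an NMDA receptor subunit, Cacna1c (-1.98), a calcium channel, and Dlg4 (-1.98), the postsynaptic scaffold PSD-95.

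In enrichment of pellet over fraction 5/6 in the standard preparation, list members passed in FMR1 KO. Of the 20 partners and substrates, 5 were higher in the pellet, led by the glutamate receptor subunits Grin1 (1.11 ± 0.26) and Gria1 (0.90 ± 0.17) and by Cacna1c (0.85 ± 0.19), and 1 was lower, the transcription factor Creb1 (-0.54), beside the 9.09% of all genes that were higher and the 2.35% that were lower. The median of that list was 0.38 beside -0.04 over all genes, and no gene of the other 4 lists passed. The subunits of the kinase itself, at 0.29, 0.17, -0.19 and 1.60, were not called in the same fit. In WT no member of the 5 lists passed with all libraries, where 0.0229% of all genes did, but without the library labelled WT fraction 5/6 replicate 3, when 7.76% of all genes were higher and 1.86% lower, 3 of the 20 partners and substrates were higher, among them the postsynaptic scaffold Shank3 (1.02) and the histone deacetylase Hdac4 (0.48), with a list median of 0.44. Calm2 (-0.69), a calmodulin gene, and Ppp3r1 (-0.52), the calcineurin regulatory subunit, were then lower. The paper cites earlier work that found secretory mRNAs to be enriched in the pellet over fraction 5/6. It detected ribophorin, a marker of rough endoplasmic reticulum, in the pellet and none in fraction 5/6. The part of secretory mRNAs in the values of these lists was not tested.

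Markers of other brain cells were measured beside these values. Neuronal markers (6 genes) summed to between 5675 and 11976 CPM in the standard libraries of every group, and none was at 0. In WT occupancy 5 of these 6 were higher and none lower, with a median of 1.11, and in WT fraction 5/6 against RNA-seq 5 were higher, where 24.7% of all genes were, with a median of 1.02. Without the library labelled replicate 3, 5 were again higher, against 27.9% of all genes, with a median of 1.13. Of 4 markers of inhibitory neurons 2 were higher and 1 lower in WT occupancy, with a median of 1.04, and of 3 of endothelium 2 were lower, with a median of -1.21. Markers of excitatory neurons (4 genes), the cells with most Camk2a, summed to 394 to 463 CPM in standard RNA-seq and 135 to 203 in the standard pellet. In WT occupancy, with 31.1% of all genes higher and 34.3% lower, 1 of them was higher and 2 lower, with a median log2 difference of -0.12. Of 5 markers of astrocytes and radial glia 3 were higher and none lower, with a median of 0.97, of 5 of microglia 2 were higher and 2 lower, with a median of 0.47, and of 5 of the oligodendrocyte lineage 1 was lower, with a median of 0.38. The 4 erythroid globin genes were all lower, with a median of -3.43, and summed to 225 to 523 CPM in standard RNA-seq and 3.27 to 14.2 in standard footprints. The part of these differences in the subunit values was not tested.

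Among the 9163 genes with at least 10 CPM on average, those with the pattern most like Camk2a over the 18 standard libraries were Mical2 (r = 0.969), Mink1 (0.965) and Aak1 (0.962). Camk2b was followed by Cmip (0.973), Nos1ap (0.966) and Osbp (0.965), and Camk2d most closely by Prkci (0.923). Camk2a and Camk2b had an r of 0.915 with each other, and Camk2b and Camk2d 0.615, while Camk2g as deposited, with the excess it shares with Vcl, had an r of -0.56 to -0.40 with the other three. Over the 12 footprint libraries alone these were -0.11 with Camk2a, -0.34 with Camk2b and -0.41 with Camk2d.

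Peaks of footprint coverage along the transcripts were deposited for the 12 standard footprint libraries. They show where ribosomes collected within an mRNA, and those used here lie on 1 transcript of each gene, which is the transcript named in the count table only for Camk2d: Camk2a-203, with a coding sequence of 1437 nt, Camk2b-201 (1512 nt), Camk2d-203 (1539 nt) and Camk2g-203 (1488 nt). Camk2a had peaks in all 12 libraries, with 14, 16 and 15 in the pellet of WT, against 18, 18 and 16 of FMR1 KO, and with 16, 15 and 15 in fraction 5/6 of WT, against 17, 17 and 14 of FMR1 KO. All 191 lay in the coding sequence, which they covered by 24.7% to 47.5%. In each library this count was at the 85.4th to 95.9th percentile of the 2439 to 5181 transcripts with peaks, whose median was 3 to 4.

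The other subunits had fewer peaks than Camk2a in every library, although Camk2b had more footprints per kb. The paper's methods set a peak against the average of the whole transcript. Of the 4970 nt of Camk2a-203, 1437 are coding, and of the 1872 nt of Camk2b-201, 1512 are. The level per kb is that of the gene, while the peaks lie on a single transcript. The part of either in the peak numbers was not tested. Camk2b had none, none and 3 in the WT pellet and none, 11 and none in the FMR1 KO pellet, and 2, 3 and 2 in WT and 11, 1 and 3 in FMR1 KO fraction 5/6. Camk2g had 12, 1 and 2 in the WT pellet and 5, 1 and 5 in the FMR1 KO pellet, with up to 8 in fraction 5/6, and Camk2d had 6 peaks in all, in 3 libraries. The 11 peaks of Camk2b were at the 86.7th percentile of transcripts with peaks in FMR1 KO fraction 5/6 replicate 1 and at the 85.4th in FMR1 KO pellet replicate 2, and the 12 of Camk2g at the 80.9th in WT pellet replicate 1. The tallest peaks of Camk2a reached 19 to 89 reads by library, those of Camk2b 8 to 44 and those of Camk2g 4 to 16, heights that are not scaled for depth. The 6 peaks of Camk2d had heights of 0, 1, 1, 5, 18 and 21 reads, and the lowest of Camk2g had 1. Some counted peaks therefore hold almost no reads.

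**Figure D5:**
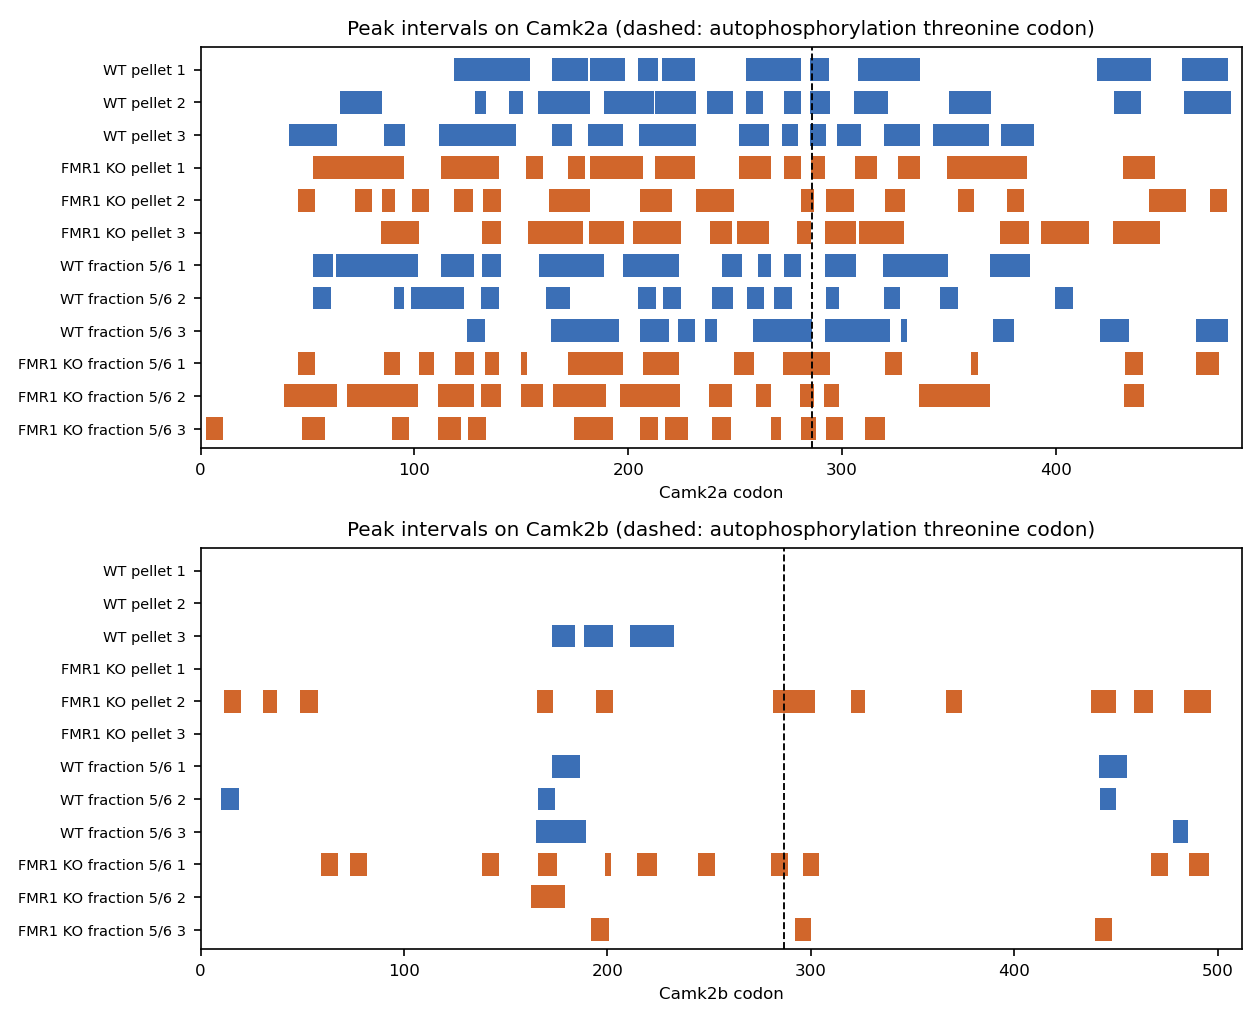
Intervals of footprint peaks along the coding sequence of Camk2a (upper part) and Camk2b (lower part), in codons from the start codon, in each of the 12 standard footprint libraries, blue for WT and orange for FMR1 KO; the dashed line marks the codon of the switch threonine. Camk2a has 14 to 18 peaks in every library, some of which touch in the drawing, while Camk2b has none in 4 libraries.

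The number of Camk2a peaks was compared between genotypes with tests that 3 against 3 libraries could not pass. It was 17.3 ± 1.15 in the FMR1 KO and 15.0 ± 1.00 in the WT pellet, 2.33 apart and touching only at 16 (SD, n = 3; two-sided exact permutation p = 0.2, where 0.1 is the smallest possible), 16 ± 1.73 and 15.3 ± 0.577 in fraction 5/6 (exact p = 0.8), and 16.2 ± 1.60 in the 6 pellet against 15.7 ± 1.21 in the 6 fraction 5/6 libraries (exact p = 0.684). With the doubted WT replicate 3 of fraction 5/6 left out, the last 2 had exact permutation p of 0.8 and 0.831. Over the 4 subunits tested in each of these comparisons, no p adjusted by the Benjamini-Hochberg method was below 0.8.

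Peaks whose middles lay within 6 nt were counted as one position. Camk2a had 68 positions, of which 39 occurred in at least 2 libraries, 21 in at least 4 and 10 in at least 6. Those 10 stood near codons 92, 121, 136, 173, 188, 208, 220, 243, 258 and 275. The most recurrent, near codon 136, occurred in 8 libraries, with 1 in the WT pellet, 3 in the FMR1 KO pellet and 2 in fraction 5/6 of each genotype, and none occurred in all 6 pellet libraries. This depends on the window: with 12 nt, 2 positions occurred in all 6 pellet libraries and the most recurrent in 11 of 12. The WT pellet had 30 positions and the FMR1 KO pellet 37, and the 19 shared are 63.3% of the WT and 51.4% of the FMR1 KO positions. The pellets had 48 positions and fraction 5/6 had 51, and the 31 shared are 64.6% and 60.8% of them. Without the library labelled WT fraction 5/6 replicate 3, fraction 5/6 had 45 positions, of which the same 31 were shared. Camk2b had 26 positions and Camk2g 29, of which only 1 in Camk2b occurred in at least 4 libraries.

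Around the switch threonine, whose neighbourhood is printed above for 3 of the subunits, a Camk2a peak overlapped codon 286 in 8 of 12 libraries, and in 6 of them it spanned the whole codon. The 8 were 3 WT and 2 FMR1 KO libraries of the pellet and 3 FMR1 KO libraries of fraction 5/6, with 0 of the 3 WT libraries of that source. A Camk2a peak had its middle within 4 codons of it in 10 of 12, namely all 6 of the pellet, the 3 FMR1 KO libraries of fraction 5/6 and, of the 3 WT ones, the library labelled replicate 3 alone. The difference between genotypes at this codon was noticed in the data and was not tested. In Camk2b a peak overlapped the matching codon 287 in 2 of 12 libraries, 1 of each source. In Camk2d and Camk2g no peak overlapped it in any of the 12, where the peaks of Camk2d number 6 in all. With middles within 12 nt counted as one position, 16 positions along Camk2a occurred in at least 6 libraries, so the peaks at this codon are some among many on the transcript. The Camk2a peaks covered 24.7% to 47.5% of its coding sequence by library, a share to be held beside the 8 of 12.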

How the data were processed

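Levels came from the raw count table, in which the authors counted reads per gene after trimming (Cutadapt 2.10), removal of ribosomal and other noncoding RNA (Bowtie2 2.3.5), mapping to GRCm38 with Ensembl annotation (STAR 2.7.8a), removal of duplicates (Picard and SAMtools 1.19.2) and counting (featureCounts 2.2.0), as the paper's methods and the submitters' processing notes give them. The deposited peak lists give intervals on transcripts with the height of footprint coverage, called by the authors in each library; whether their minimum of 4 times the transcript average was applied, and where counting starts, is not given in the sources used here.

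Genes were tested with edgeR 4.0.16 (quasi-likelihood, filterByExpr, TMM, Benjamini-Hochberg, threshold 0.05) in R 4.3.3, without a block, and DESeq2 1.42.0 as an alternative; the tested rows were 16561 of protein-coding genes and 27 whose identifiers are not in the annotation used here (GENCODE M21), and 26 rows of other biotypes were left out. The code was tested on simulated counts with 200 changed genes. Values per kb used merged exons for RNA-seq and merged coding exons for footprints. Shares and peak numbers were compared by exact permutation. Intervals and floors were not needed, since the subunits had many counts in all libraries, and duplicates without molecular identifiers were not told apart. From the fixed lists, up to 3 genes with the largest and 3 with the smallest called difference were named, with the 3 genes nearest in pattern to each subunit (for Camk2d only the nearest, the others being not reported here); the subunits, the lists and the tests were chosen with earlier results of these data known. Correlations of the deviations of same-numbered libraries were over 0.1 in all 3 pairs only for pellet and fraction 5/6 of WT in the low preparation (0.118 to 0.210). Alternatives were other scalings, no filter, a replicate block, all biotypes, Cdk8 left out, libraries left out, other lengths and peak windows and, after seeing the data, Vcl taken off Camk2g, also with other lengths or a library left out, and the lists and peaks without WT fraction 5/6 replicate 3.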

Additional observations from a re-analysis of the deposited data

Results flagged for a closer look

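The mean CPM of Camk2b, the actin-binding subunit, lay on opposite sides of the WT mean with genotype in some pairs of sources, which also differ in preparation. In standard RNA-seq it was -3.29% in FMR1 KO relative to WT, with all 3 FMR1 KO libraries below the WT mean, but on edgeR's scaling the log2 difference was -0.02, and it ran from -0.15 to 0.10 with a library left out. In the standard pellet it was -23.2%, again with all 3 FMR1 KO libraries below the WT mean, and in fraction 5/6 of the low preparation 11.6%, with all 3 above it. None of the 3 effects passed edgeR's test in its own comparison, and the difference between them was not tested.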

How the results depend on the processing

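Results for single subunits kept their direction and their side of the threshold in 88 of 88 cases with RLE size factors, 88 of 88 with all biotypes, 88 of 88 without Cdk8, 82 of 88 with DESeq2 (6 gained a call), 86 of 88 without a filter (2 lost a call), 83 of 88 with the replicate block (5 lost a call) and 430 of 456 when a library or replicate number was left out (24 lost and 2 gained a call). In 1 fit over all standard libraries 41 of 44 kept both, 2 gained and 1 lost a call, and with Vcl taken off 20 of 22 did and 2 lost a call.

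Library size alone reversed 19 of 88. In the standard comparisons of footprints with RNA-seq, and in those between preparations, the median of all genes moved to between -2.33 and -1.32. The results that reversed lay above that median, except Camk2b in WT fraction 5/6 between preparations. Camk2a, Camk2b and Camk2d then stood at -1.30, -1.19 and -0.89 in WT occupancy (median -2.14), -1.98, -1.75 and -1.15 in WT fraction 5/6 against RNA-seq (-2.25), -1.97, -1.77 and -1.49 in FMR1 KO occupancy (-2.33), -1.70, -1.39 and -0.79 in FMR1 KO fraction 5/6 against RNA-seq (-1.93), -1.02, -1.23 and -0.98 in the WT pellet between preparations (-1.38) and -1.52, -1.70 and -1.53 in WT fraction 5/6 between preparations (-1.68), and Camk2d at -1.53 in the FMR1 KO pellet between preparations (-1.61).

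The number of the 4 subunits called also moved with the setting. For WT fraction 5/6 against RNA-seq it was 4 with DESeq2, and 1 to 2 when a library was left out; for FMR1 KO it was 1 with the replicate block, under which Camk2b had an adjusted p of 0.0960 and Camk2g of 0.138, and 1 to 2 with a library left out. In FMR1 KO occupancy the block took the call of Camk2b (0.0597). Low occupancy called 0 in WT and 0 in FMR1 KO with library size alone, and in FMR1 KO 1 without the 3 RNA-seq libraries led by 10 genes, 1 with Vcl taken off and 0 to 2 with a replicate number left out. WT enrichment in the low preparation called 1 with DESeq2, and FMR1 KO enrichment 0 to 1 with a library left out. Between preparations, the WT pellet called 3 with library size alone, 0 without a filter, 2 with DESeq2, 0 with the block (Camk2d adjusted p = 0.0817) and 0 to 1 with a replicate number left out; the FMR1 KO pellet called 3, 0 without a filter, 0 with the block (Camk2g 0.0706), 0 with Vcl taken off and 0 with any replicate number left out; and with library size alone WT fraction 5/6 called 3 and FMR1 KO fraction 5/6 called 2. The block changed no other call of a subunit. Over all genes, DESeq2 called 24 against 12 in RNA-seq between genotypes, 66 against 2 in the pellet, 90 against 3 in WT enrichment and 59 against 11 in the occupancy interaction.

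Differences in share, in percentage points, moved as follows. Pellet against RNA-seq, Camk2a was -6.53 with transcript length, -12.01 with raw counts, 3.13 with Vcl taken off and -9.62 to -5.43 with a library left out; Camk2d was -3.19 with raw counts, 6.63 in the low preparation, 8.39 with Vcl taken off, 9.21 over Camk2a, Camk2b and Camk2d alone and 1.22 to 3.03 with a library left out; Camk2g was -3.11 with Vcl taken off; and the log2 ratio of Camk2a to Camk2b was -0.14 with transcript length or raw counts and 0.27 in the low preparation. Fraction 5/6 against RNA-seq, Camk2a was -6.01 with transcript length, -10.6 with raw counts, -4.91 in the low preparation and -6.85 to -4.31 with a library left out; Camk2b was -14.5 and -14.3, Camk2d 1.31 and 1.29 and Camk2g 19.2 and 23.6 with transcript length and raw counts; Camk2g was 14.5 in the low preparation and -1.49 with Vcl taken off; and the ratio was -0.25 with either length choice, 0.16 in the low preparation and 0.25 to 0.35 with a library left out. Pellet against fraction 5/6, Camk2a was 2.86 with Vcl taken off, Camk2b 2.86 in the low preparation, Camk2d -3.26 with Vcl taken off and -4.05 over the 3 others alone, and Camk2g -4.50 in the low preparation and -1.62 with Vcl taken off. With Vcl taken off, pellet against RNA-seq was -0.21 for Camk2b, 2.52 for Camk2d and 0.11 for Camk2g with raw counts, and 0.10, 1.34 and 0.11 with transcript length; pellet against fraction 5/6 without the library labelled WT replicate 3 was 2.95, 2.80, -3.99 and -1.76 for Camk2a, Camk2b, Camk2d and Camk2g. With a window of 12 nt Camk2b had 3 and Camk2g 1 peak positions in at least 4 libraries.

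The cause of these changes was not tested beyond what each setting changes by construction. With 3 libraries a group, peak numbers and shares between genotypes could not pass 0.05, and the standard footprint libraries, at 4284209 to 21274803 counts without Cdk8, were shallower than RNA-seq.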
